A study of Mus musculus with 6 samples.

Results

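The HOX cluster genes were examined in mouse B-lineage acute lymphoblastic leukaemia with and without the microRNA miR-182. Members were the protein-coding rows whose symbol was Hoxa, Hoxb, Hoxc or Hoxd followed by a paralogue number, and 39 of the 55487 listed genes met this rule, whatever their counts. RNA sequencing of bone marrow cells sorted as positive for GFP and for B220, a surface protein of the B lineage, gave 6 libraries. Of these, 3 carried the genotype WT (replicates 1, 3 and 4) and 3 the genotype miR-182 KO (replicates 2, 3 and 4, called KO here), all at Day 0. Every group came from mice transplanted with bone marrow cells at 6 to 8 weeks of age, and GFP in peripheral blood was followed from 3 weeks after transplantation. The series describes the B-lineage leukaemia as induced by BCR-ABL (P190), the oncogene of Philadelphia-positive leukaemia, so that WT and KO cells carried it alike. The sources used here do not say how GFP was delivered, how the knockout was made, or whether each library came from its own mouse, so p-values measure the spread between these libraries only.

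HOX proteins are homeodomain transcription factors encoded in a series of linked clusters, and genes with the same number in different clusters are paralogues. Along each cluster the low-numbered genes are expressed towards the head of the embryo and the high-numbered genes towards the tail. In blood, HOXA and HOXB genes are active in stem and progenitor cells and are lowered as cells mature, and HOXA9 with its cofactor MEIS1 is a known driver of acute leukaemia. HOX proteins bind DNA together with the TALE homeodomain factors PBX and MEIS, and their clusters are held active by the MLL-menin complex and silent by Polycomb complexes.

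The libraries held between 17704382 and 29237035 counts each. A gene with no counts is set against a floor of 3, which is 0.103 to 0.169 CPM (counts scaled to a library total of 1e6). Mir182 itself had 0 counts in all 6 libraries, which does not check the genotype because these libraries do not measure mature microRNAs. Markers of the B lineage (10 of 10 detected, among them Cd79a, Cd79b and Pax5) summed to between 6967 and 7937 CPM in every library. The heavy-chain segment Ighv5-16 led the Ighv counts of all 3 WT libraries (26.4% to 38.3%) and Ighv2-5 those of all 3 KO libraries (25.8% to 35.0%), so that a difference between genotypes and a difference between leukaemias cannot be told apart. Across the whole table, 52.5% of the 14481 genes tested changed with the edgeR quasi-likelihood test at an adjusted p below 0.05.

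HOX expression in these libraries came almost entirely from the HOXB cluster on chromosome 11. Of 5001 counts assigned to HOX genes over the 6 libraries, 4920 (98.4%) fell on HOXB genes, 72 on the 11 HOXA genes, 7 on the 9 HOXC genes and 2 on the 9 HOXD genes. There were 16 HOX genes with 0 counts in every library: Hoxa10, Hoxa13, Hoxb9, Hoxb13, 5 of the HOXC genes and 7 of the HOXD genes. Another 16 had counts but fewer than 10 in every library. That left Hoxb2 to Hoxb8, and of these Hoxb3 to Hoxb8 had enough counts to be tested.

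**Figure D1:**
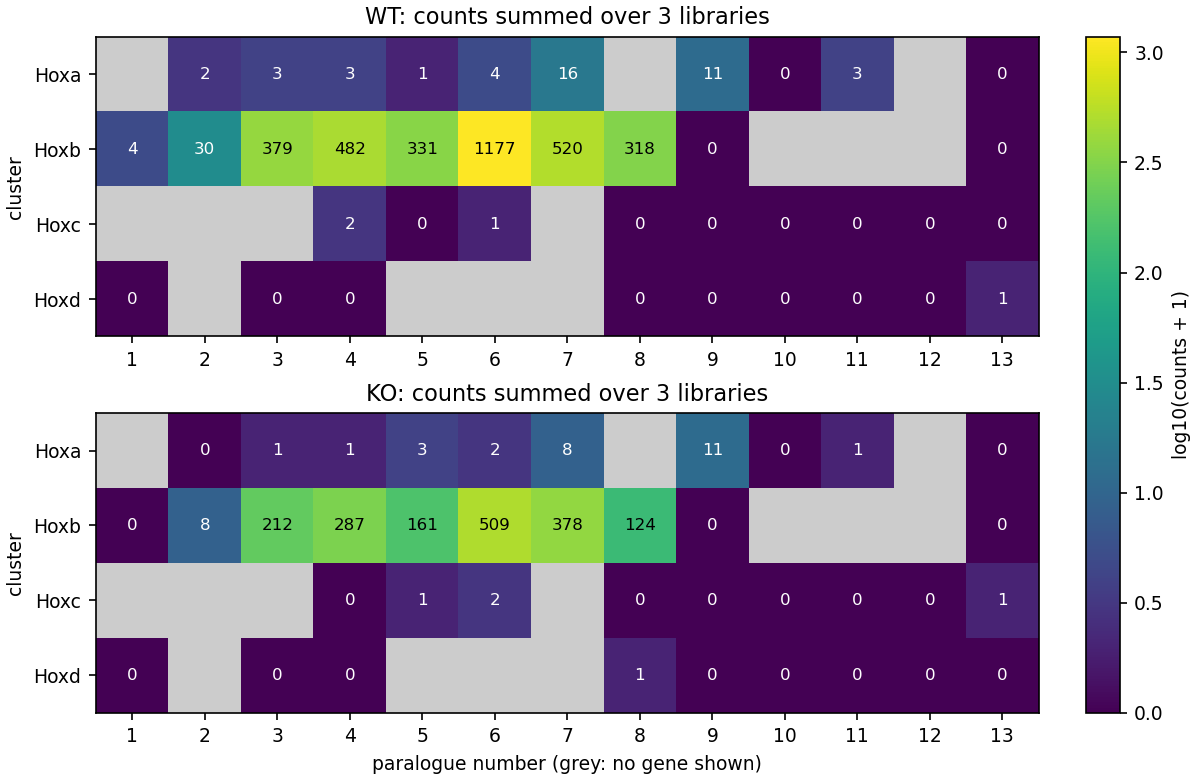
Counts of each HOX gene summed over the 3 WT libraries (top) and the 3 KO libraries (bottom), as log10 of counts plus 1, by cluster (rows) and paralogue number (columns), with grey where no gene is shown. The HOXB row from paralogue 2 to 8 holds nearly all counts in both genotypes, and paralogue groups 10 and 12 are empty.

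All HOXB genes lie on the plus strand of chromosome 11 (GRCm38), with Hoxb13 first and Hoxb1 last. The expressed genes formed 1 uninterrupted run from Hoxb8 (start 96281905) to Hoxb3 (end 96347930), a stretch of 66.0 kb. Its edge towards the tail-side genes was abrupt: Hoxb9, whose last base lies 5309 bases before Hoxb8, had 0 counts in each library. At the other edge counts were low at Hoxb2, 2594 bases after Hoxb3, and lower still at Hoxb1. Hoxb13, separated from Hoxb9 by 74009 bases, also had 0 counts throughout.

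**Figure D2:**
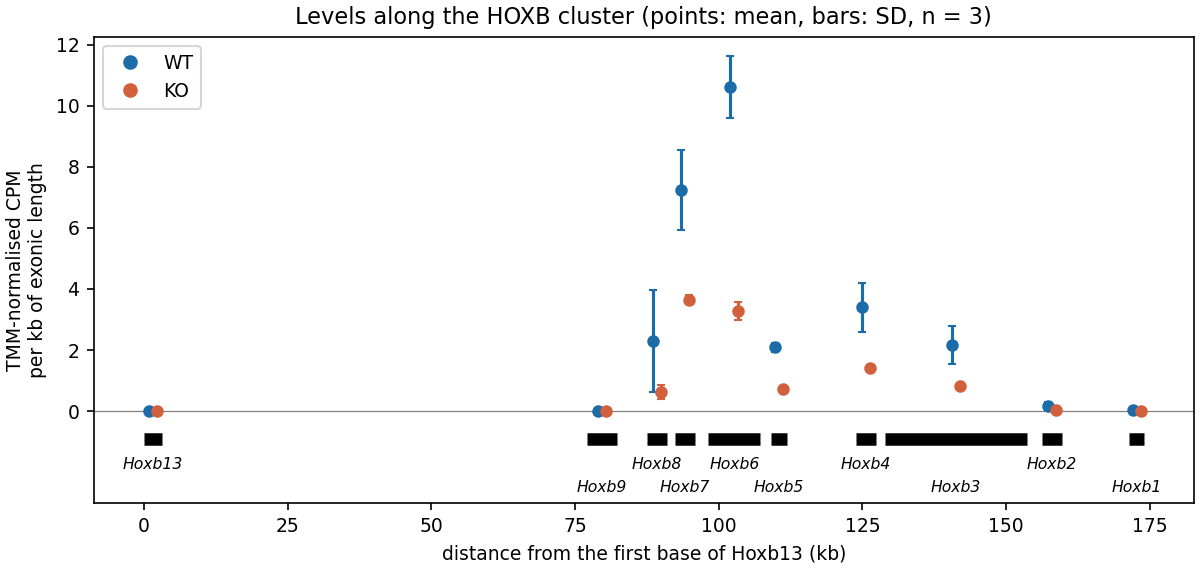
Level of each HOXB gene, as TMM-normalised CPM per kb of exonic length (mean and SD of 3 libraries), against distance in kb from the first base of Hoxb13, for WT and KO. Levels are 0 at Hoxb13 and Hoxb9, highest at Hoxb7 and Hoxb6, and lower from Hoxb5 to Hoxb1, with the WT mean above the KO mean at each gene from Hoxb8 to Hoxb1.

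Summed over the cluster, HOXB genes gave 71.7, 48.5 and 54.5 CPM in WT and 22.2, 20.4 and 20.8 CPM in KO, here and below in the order of replicates 1, 3 and 4 for WT and 2, 3 and 4 for KO. The means were 58.3 ± 12.0 CPM in WT and 21.1 ± 0.931 CPM in KO (SD, n = 3 each), and the lowest WT library lay above the highest KO library. Levels here are CPM scaled by TMM (trimmed mean of M values) factors. In bulk RNA, fewer cells of a kind that expresses a gene and less RNA per cell cannot be told apart. All 6 tested members were lower in KO and 0 were higher, where 28.5% of all tested genes were lower and 23.9% higher. The 6 members passed the filter on low counts in both genotypes, the lowest of their values being 1.20 CPM. Their log2 fold changes, KO over WT, ran from -1.90 to -0.98 with a median of -1.46, beside a median of -0.0015 over all genes tested. In 5 of the 6 every WT library lay above every KO library, a separation in that direction seen in 33.2% of all tested genes, while 30.8% were separated the other way and 64% in either direction.

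**Figure D3:**
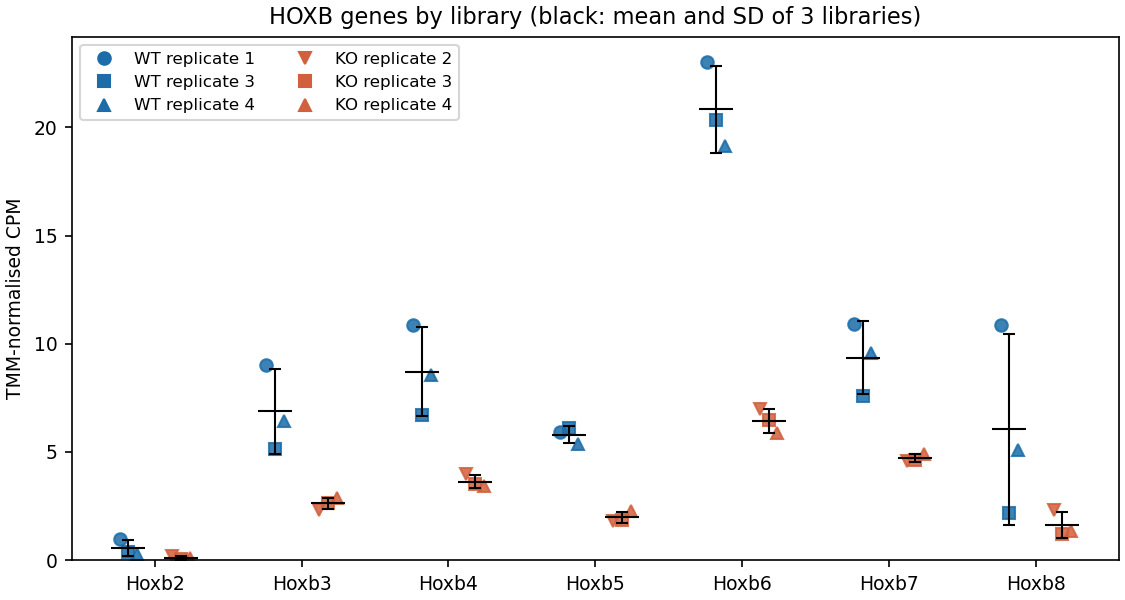
TMM-normalised CPM of Hoxb2 to Hoxb8 in every library, with WT and KO in separate colours, a marker shape per replicate number, and black bars for the mean and SD of 3 libraries. WT lies above KO without overlap for Hoxb3 to Hoxb7, while for Hoxb8 WT replicate 3 (2.20 CPM) falls below KO replicate 2 (2.34 CPM).

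Hoxb6, a gene of the middle of the cluster that is expressed in early blood progenitors, had the most counts of all HOX genes in each library (ENSMUSG00000000690, chromosome 11 from 96292476 to 96301569). It stood at 23.0, 20.3 and 19.1 CPM in WT and at 6.97, 6.49 and 5.87 CPM in KO. The libraries of a genotype lay close together and the genotypes were far apart, so that WT was 3.24-fold above KO (log2 fold change -1.69, SE 0.12, adjusted p = 0.000135).

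Hoxb5 (ENSMUSG00000038700, chromosome 11 from 96303336 to 96306121), known in the mouse as a marker of long-term blood stem cells, stood at 5.94, 6.12 and 5.37 CPM in WT and 1.81, 1.88 and 2.28 CPM in KO. Its WT libraries lay closer together than those of the other tested members, and WT was 2.90-fold above KO without overlap (log2 fold change -1.54, SE 0.17, adjusted p = 0.000678). Hoxb5os, an antisense gene, shares 100 of the 2786 exonic bases of Hoxb5 and had 17 counts in all.

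Hoxb4, known for expanding blood stem cells when it is overexpressed, followed in the next position (ENSMUSG00000038692, chromosome 11 from 96318267 to 96321638). Its levels were 10.9, 6.73 and 8.57 CPM in WT and 3.96, 3.51 and 3.42 CPM in KO, without overlap. WT was 2.40-fold above KO (log2 fold change -1.26, SE 0.20, adjusted p = 0.00274).

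Hoxb3, which acts together with Hoxb4 in blood progenitors, spans the longest stretch of the run (ENSMUSG00000048763, chromosome 11 from 96323326 to 96347930). Its levels were 9.04, 5.15 and 6.45 CPM in WT and 2.34, 2.66 and 2.87 CPM in KO, again without overlap. The log2 fold change was -1.38 (SE 0.24, adjusted p = 0.00344), a 2.60-fold higher level in WT. In GENCODE M21, 2250 of its 4251 exonic bases are shared with the antisense gene Hoxb3os, which had 5 counts in all. Whether the authors' counting used the strand is not given in the sources used here, so reads of the overlapping genes may not be separable.

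Hoxb7, a paralogue of Hoxa7, changed least (ENSMUSG00000038721, chromosome 11 from 96286623 to 96290162). It stood at 10.9, 7.57 and 9.59 CPM in WT and at 4.58, 4.64 and 4.92 CPM in KO, where the 3 libraries were almost level. The groups did not overlap, and WT was 1.98-fold above KO (log2 fold change -0.98, SE 0.17, adjusted p = 0.00325).

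Hoxb8, which holds myeloid progenitors in an immature state when overexpressed, was the least even member (ENSMUSG00000056648, chromosome 11 from 96281905 to 96285315). It had 10.9, 2.20 and 5.08 CPM in WT and 2.34, 1.20 and 1.34 CPM in KO. WT replicate 1 lay 4.93-fold above WT replicate 3, and the groups overlapped. Its log2 fold change of -1.90 (SE 0.58, adjusted p = 0.0291) was the largest of the 6 in size and had the widest error. The call rested on single libraries: without WT replicate 1 it was -1.17 (adjusted p = 0.0664). Leaving out WT replicate 4 also ended it (adjusted p = 0.0567), as did leaving out KO replicate 3 (0.0972), leaving out KO replicate 4 (0.0873) and using limma-voom (0.0680), with a range of 0.000855 to 0.0972 over 14 alternative settings.

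The anterior genes Hoxb2 and Hoxb1, which pattern the hindbrain, were too low to test with the rest. Hoxb2 (chromosome 11 from 96350525 to 96354012) had 16, 9 and 5 counts in the WT libraries and 4, 1 and 3 in the KO libraries. The 30 and 8 counts give a WT to KO ratio of 4.88 per library total (95% counting interval 2.19 to 12.3). With no filter beyond 1 count Hoxb2 was lower in KO (log2 fold change -2.29, edgeR adjusted p = 0.0165), and in the authors' deposited table it stood at -2.37 with an FDR of 0.0385. Hoxb1 had 2, 1 and 1 counts in WT and 0 in each KO library. Set against a floor of 3 counts over the KO group, this is 1.74-fold higher in WT. The counting error of the few WT counts is not included, so this is not a lower bound.

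The members differed from each other in level as well as in fold. Scaled to exonic length as the authors list it, Hoxb6 led in WT at 10.6 ± 1.02 CPM per kb, followed by Hoxb7 at 7.25 ± 1.31 and Hoxb4 at 3.40 ± 0.805 CPM per kb (SD, n = 3). Hoxb8 (2.29 ± 1.67), Hoxb3 (2.16 ± 0.620) and Hoxb5 (2.08 ± 0.140 CPM per kb) came next, and each neighbouring pair from Hoxb4 downward overlapped. In KO the first 2 places were exchanged, with Hoxb7 at 3.65 ± 0.141 and Hoxb6 at 3.28 ± 0.280 CPM per kb. Their ranges did not overlap, although the lowest Hoxb7 value and the highest Hoxb6 value were both 3.55 CPM per kb. Hoxb4 (1.41 ± 0.112) lay above Hoxb3 (0.822 ± 0.0838 CPM per kb), whereas Hoxb3, Hoxb5 (0.715 ± 0.0912) and Hoxb8 (0.617 ± 0.235 CPM per kb) overlapped with their neighbours in the order.

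The ratio of Hoxb6 to Hoxb7 was also read within each library, where no scaling between libraries is involved, a pair chosen after its values were seen. It was, in counts, 2.11, 2.69 and 1.99 in WT and 1.52, 1.40 and 1.19 in KO. Every WT ratio exceeded every KO ratio, with a mean log2 difference of -0.72. A two-sided exact permutation test gave p = 0.1, the smallest that 3 against 3 libraries allow. After Benjamini-Hochberg adjustment over the 15 pairs of tested members it was 0.3. With so few libraries this test could not have passed the threshold whatever the ratios, so no conclusion is drawn from it. Of the 15 pairs, 5 had ratios separated between the genotypes without overlap, each of them with Hoxb6 or Hoxb7 as a partner. Most of the 15 pairs include Hoxb6 or Hoxb7, and pairs that share a gene are not independent. The share of separated pairs over all genes was not computed. Hoxb7 made up 16.2% of the counts of the 6 genes in WT (exact 95% interval 14.95% to 17.5%) and 22.6% in KO (20.6% to 24.7%). Hoxb6 made up 36.7% in WT (35.0% to 38.4%) and 30.5% in KO (28.3% to 32.7%). Intervals here cover counting error only, and a floor covers only that of the group with 0 counts.

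The sequence before the start of each gene is shown for Hoxb8 and Hoxb4, the expressed genes that the RefSeq promoter table holds, because members of the run were lower together. Hoxb3, Hoxb5, Hoxb6 and Hoxb7 are named only. Each line gives the 250 bases upstream of the annotated start on the plus strand of GRCm38.p6, chr11:96281655-96281904 for Hoxb8 and chr11:96318017-96318266 for Hoxb4. Capitals mark motif matches on either strand.
Hoxb8: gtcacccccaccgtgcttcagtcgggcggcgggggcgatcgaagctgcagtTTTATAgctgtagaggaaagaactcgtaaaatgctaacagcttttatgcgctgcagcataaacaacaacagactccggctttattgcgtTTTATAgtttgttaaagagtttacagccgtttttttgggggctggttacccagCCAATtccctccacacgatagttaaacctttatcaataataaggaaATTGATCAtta
Hoxb4: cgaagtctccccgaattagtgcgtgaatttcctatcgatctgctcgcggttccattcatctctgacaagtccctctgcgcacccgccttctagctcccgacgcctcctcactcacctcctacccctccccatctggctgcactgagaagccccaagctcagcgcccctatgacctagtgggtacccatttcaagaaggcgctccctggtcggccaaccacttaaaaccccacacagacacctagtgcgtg
The motifs searched were the CCAAT box, the E-box CACGTG, the TATA sequence TATAAA and the composite HOX-PBX element TGATNNAT. Upstream of Hoxb8 there were 1 CCAAT box, 2 TATA sequences on the minus strand and 1 HOX-PBX element on the minus strand, and upstream of Hoxb4 there were 0 matches. Over all 32851 promoters of the table, windows of 250 bases held the CCAAT box in 33.8%, TATAAA in 12.4%, TGATNNAT in 7.68% and CACGTG in 6.02%. The Hoxb8 window held 12 CpG and was 44.4% GC, and the Hoxb4 window held 14 CpG and was 58% GC, beside medians of 6 CpG and 52.4% GC over all promoters.

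HOXA genes were near the limit of detection. The whole cluster on chromosome 6 gave 15 counts in each of the 3 WT libraries and 7, 4 and 16 counts in the KO libraries. Hoxa9, the member best known from acute leukaemia, had 2, 5 and 4 counts in WT and 2, 2 and 7 in KO. Its 11 counts in each genotype give a ratio of 1.30 per library total with an interval of 0.512 to 3.31, so that no difference was detectable at this depth. Hoxa7 had 9, 3 and 4 counts in WT and 2, 1 and 5 in KO, with overlapping groups and a ratio of 2.60 (1.05 to 7.02). Hoxa6 had 4 counts in WT and 2 in KO, and Hoxa2, Hoxa3, Hoxa4, Hoxa5 and Hoxa11 had at most 3 in a genotype. None of the HOXA genes had enough counts for the test. With no filter beyond 1 count the edgeR adjusted p was 0.178 for Hoxa7 and 0.662 for Hoxa9.

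HOXC and HOXD genes, on chromosomes 15 and 2, had 9 counts between them. Hoxc4 (2 in WT), Hoxc5 (1 in KO), Hoxc6 (1 in WT, 2 in KO), Hoxc13 (1 in KO), Hoxd8 (1 in KO) and Hoxd13 (1 in WT) account for these. By paralogue number, group 6 held the most counts, with 1182 in WT and 513 in KO, while groups 10 and 12 had 0, group 11 had 4 and group 13 had 2.

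Markers of several other cell types, though not of all, were lower in KO, as the HOXB genes were. Summed levels of 17 neutrophil markers, among them S100a8, Ltf and Mpo, were 41184, 16882 and 29655 CPM in WT and 1396, 3300 and 7013 CPM in KO, and all 17 were lower in KO. All 10 monocyte and macrophage markers were lower as well, from a range of 1406 to 4262 CPM in WT to 258 to 651 CPM in KO. Stem and progenitor markers summed to 203 to 291 CPM in WT and 104 to 154 CPM in KO. This sum was mostly Mycn (169, 280 and 219 CPM in WT, 142, 122 and 90.5 in KO). Of these markers Hlf, Cd34, Mycn and Ly6a were lower, Hlf reaching the filter's level through WT alone. The Cd34 groups overlapped (0.880 CPM in WT replicate 3, 0.913 in KO replicate 4). Kit did not pass (log2 fold change 0.12, adjusted p = 0.729). B-lineage markers overlapped between the genotypes, with 3 of 10 higher, 3 lower and 4 not passing, shares near those of all genes. Over all genes tested, 28.5% were lower and 23.9% higher.

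Within a genotype the HOXB sum did not vary by similar amounts to the neutrophil and monocyte sums. Among the KO libraries the neutrophil sum spanned a factor of 5.03 and the monocyte sum a factor of 2.53, while the HOXB sum spanned 1.09. Among the WT libraries the factors were 2.44, 3.03 and 1.48, and there replicate 1 was highest and replicate 3 lowest for neutrophil, monocyte and HOXB sums and for Hoxb3, Hoxb4, Hoxb7 and Hoxb8. The monocyte sum was mostly Lyz2 (3824, 1186 and 2707 CPM in WT, 174, 253 and 551 in KO), so its spread was largely that of Lyz2. Next in level in KO, Csf1r (21.6, 26.1 and 31.1 CPM) and F13a1 (27.3, 20.3 and 27.2) varied less there. The part of myeloid cells in the HOXB difference was not tested. Lower ranges in KO were also found for markers of T cells (58.2 to 116 against 12.4 to 16.1 CPM), NK cells (46.5 to 77.7 against 2.96 to 4.50) and mast cells and basophils (5.81 to 18.6 against 1.17 to 1.73). The T-cell sum was mostly Lck in WT (45.2, 105 and 43.9 CPM), and the NK sum was mostly Klrb1c there (56.8, 43.1 and 47.8). Cd3e, Cd8a, Cd8b1, Bcl11b, Ncr1, Prf1 and Klrd1 overlapped between the genotypes, while Cd3d, Cd3g, Cd4, Gata3, Trac, Gzmb and Eomes did not. Markers of megakaryocytes (1.58 to 3.15 against 0.992 to 1.21) were lower in range too. Erythroid markers were higher in KO in range (614 to 664 against 210 to 332 CPM). Among them Car2 was higher (125, 249 and 163 CPM in WT, 555, 558 and 510 in KO) and made up most of the KO sums. Hba-a1, Hbb-bs and Alas2 overlapped between the genotypes and did not pass. Stromal markers (10.3 to 38.0 against 6.73 to 10.4) overlapped. The endothelial sum also overlapped (93.5 to 104 against 99.0 to 122), but it was mostly Pecam1, while Emcn went from 127, 98 and 89 counts in WT to 3, 0 and 1 in KO. Genes named in this paragraph, other than HOX genes, were chosen after their values were seen. Of the defining markers only Gp1ba and Tek had 0 counts in all libraries.

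**Figure D4:**
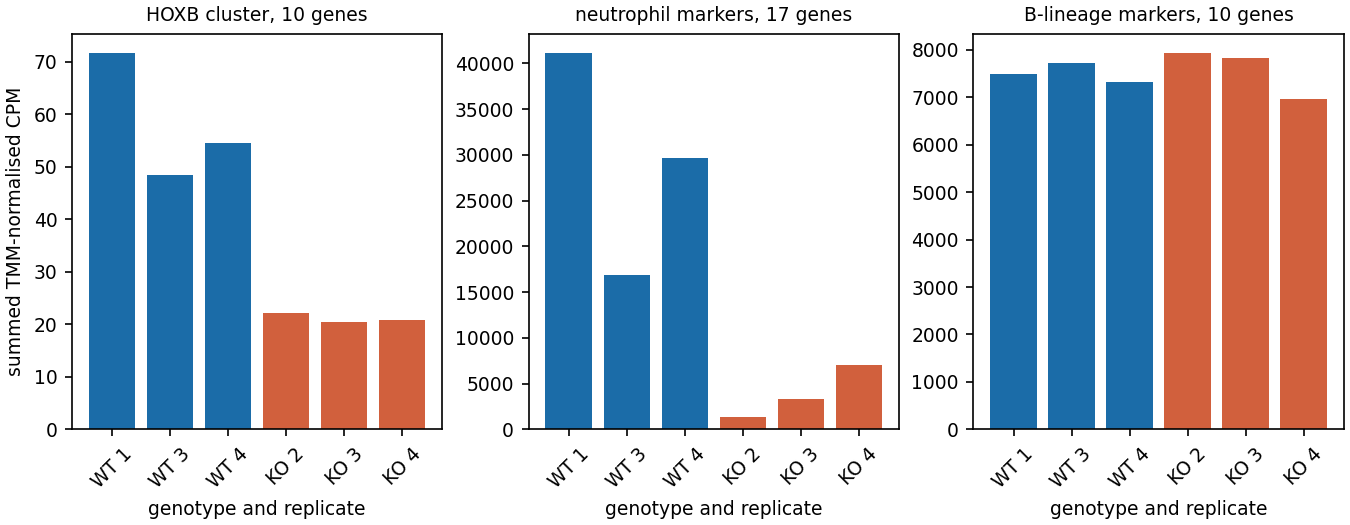
Summed TMM-normalised CPM in each library for the HOXB genes, 17 neutrophil markers and 10 B-lineage markers, 1 bar per library by genotype and replicate. HOXB and neutrophil sums are lower in every KO library than in any WT library, and the KO libraries are level for HOXB (20.4 to 22.2 CPM) but not for neutrophil markers (1396 to 7013 CPM), while B-lineage sums overlap.

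HOX clusters also encode microRNAs that are known to act on HOX transcripts, so their sequences are shown beside that of miR-182, the microRNA deleted in KO. Seeds (bases 2 to 8) are in capitals, and the sequences are from RefSeq on GRCm38.p6.
mmu-miR-182-5p: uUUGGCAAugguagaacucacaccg
mmu-miR-10a-5p: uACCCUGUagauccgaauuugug
mmu-miR-10b-5p: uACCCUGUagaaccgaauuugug
mmu-miR-196a-5p: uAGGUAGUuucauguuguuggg
mmu-miR-196b-5p: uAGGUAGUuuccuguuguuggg
The pair of miR-10 sequences share the seed ACCCUGU and the pair of miR-196 sequences the seed AGGUAGU, and neither is that of miR-182, UUGGCAA. In the longest annotated 3′ UTR, the match to the miR-182 seed, TTGCCAA, occurred in 10.9% of 21020 genes and in 3 of the 39 HOX genes, Hoxa9, Hoxa10 and Hoxd12. Of the 6 tested HOXB genes 0 held it. The miR-196 match ACTACCT occurred in 6.10% of all genes and in 9 HOX genes, Hoxb6 and Hoxb7 among them. The miR-10 match ACAGGGT occurred in 12.5% of all genes and in 4 HOX genes, Hoxb3 among them.

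The sites in the expressed genes are printed 5′ to 3′ with the seed match in capitals, each ending opposite the first base of the microRNA.
Hoxb3 with miR-10a-5p: gacttaacgtgaaaACAGGGTa
Hoxb6 with miR-196a-5p: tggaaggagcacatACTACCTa
Hoxb7 with miR-196a-5p: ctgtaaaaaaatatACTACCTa
Hoxb8 is a known target that miR-196 cleaves in the mouse embryo, and it carries a site outside the seed rule, where capitals mark Watson-Crick pairs with miR-196a-5p.
Hoxb8 with miR-196a-5p: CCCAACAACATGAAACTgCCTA
This window paired at 21 of 22 positions, with a G:U pair at position 5 of the microRNA, and the next best window of the 845-base 3′ UTR paired at 11. A match is a description of the sequence and does not show that the microRNA acts there.

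The RNA of these microRNA genes was scarce. Mir10a, which lies between Hoxb5 and Hoxb4, had 6, 4 and 4 counts in WT and 0, 1 and 1 in KO, so that the groups did not overlap. The 14 and 2 counts give a ratio of 9.11 per library total with an interval of 2.09 to 82.6. Mir10b, Mir196a-1, Mir196a-2 and Mir196b had 0 counts. The antisense genes were too low to test. Hoxb3os had 3, 1 and 1 counts in WT and 0 in KO. Against a floor of 3 counts over the KO group this is 2.17-fold higher in WT, without the counting error of the WT counts. Hoxb5os had 0, 2 and 1 counts in WT and 5, 2 and 7 in KO, with overlap, and a KO to WT ratio of 3.59 (1.001 to 19.5) whose interval included 1 when the totals were scaled by TMM. Of the other noncoding genes listed for the clusters, Hoxaas3 had 3 counts and Mir615 had 1, while Hotair, Hotairm1, Hottip and the rest of the 11 at 0 had none.

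The TALE cofactors, through which HOX proteins gain binding specificity, were lower in KO in 5 of 8 tested cases and higher in 0, beside 28.5% lower and 23.9% higher over all genes tested. Meis2, Meis3 and Pknox2 reached the filter's level through WT alone, so that they could pass it only by being high there. Of the other 5 tested cofactors 3 were lower and 0 higher. Pbx2, a broadly expressed partner of HOX proteins, stood at 102, 66.0 and 83.9 CPM in WT and 41.6, 44.5 and 47.0 CPM in KO (log2 fold change -0.92, SE 0.16, adjusted p = 0.00323). Its groups did not overlap, and the KO libraries lay closer together than the WT libraries. Meis2 went from 300, 398 and 305 counts in WT to 0, 2 and 1 in KO, a ratio of 435 per library total (148 to 2113), with no overlap. Meis3 was lower in KO as well (-2.51, SE 0.27, adjusted p = 0.000589).

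The remaining cofactors gave weaker values. Pbx4 was lower (-0.72, SE 0.22, adjusted p = 0.0290), a call lost without WT replicate 4 (adjusted p = 0.100) or any 1 of the KO libraries (0.0626 to 0.107), with library totals alone (0.0532) and with no filter (0.0522). Over its 14 alternatives the adjusted p of Pbx4 ran from 0.0110 to 0.107. Pbx3, named in the series title as a target of miR-182, had 1.88, 1.01 and 1.83 CPM in WT and 0.859, 0.709 and 1.08 CPM in KO, with overlap (-0.81, SE 0.32, adjusted p = 0.0664). Pknox2 (-1.95, adjusted p = 0.0928) and Pknox1 (0.12, adjusted p = 0.294) did not pass either. Without WT replicate 3, Pbx3 (adjusted p = 0.0166) and Pknox2 (0.0443) passed as lower, over ranges of 0.0166 to 0.196 and 0.0443 to 0.278. Meis1, the cofactor of HOXA9 in leukaemia, had 6, 7 and 9 counts in WT and 5, 2 and 4 in KO and was not tested.

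**Figure D5:**
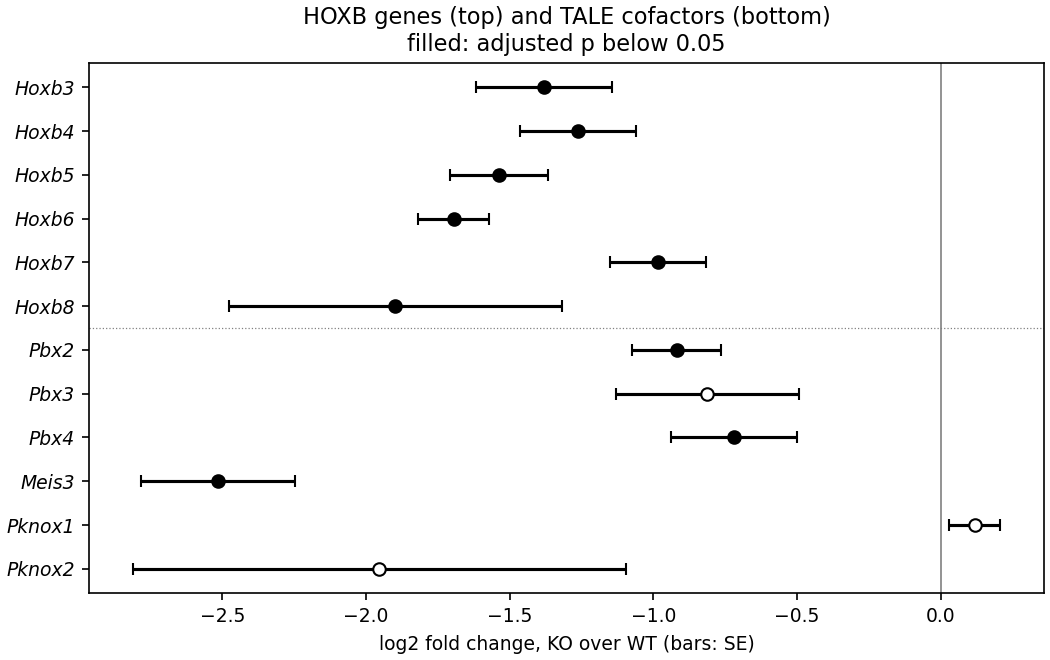
Log2 fold change, KO over WT, with SE for the tested HOXB genes (top) and TALE cofactors (bottom, without Meis2, which had 3 KO counts), filled where the adjusted p is below 0.05. All 6 HOXB values lie between -1.90 and -0.98, while the cofactors shown range from -2.51 for Meis3 to 0.12 for Pknox1.

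Genes that maintain HOX transcription moved in both directions. In the MLL-menin list, 8 of 16 tested members were higher in KO, 3 lower and 5 did not pass, beside 23.9% higher and 28.5% lower over all genes tested, and with a median log2 fold change of 0.24. Men1, which encodes menin, the adaptor that tethers MLL, was lower, from 172 ± 14.4 CPM in WT to 104 ± 9.84 CPM in KO (-0.73, adjusted p = 0.00143). Mllt1, which encodes the reader ENL of acetylated histones, was higher (0.53, adjusted p = 0.00147), as were Ash2l, a core subunit of MLL complexes (0.40, adjusted p = 0.00302), and Kat7, a histone acetyltransferase (0.45, adjusted p = 0.00304). The lower members numbered 1 without KO replicate 3.

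The list of Polycomb genes, whose complexes silence HOX clusters, also holds Kdm6a and Kdm6b, demethylases that oppose this silencing. Its 19 genes were also mixed: 7 were higher, 3 lower (Kdm6b among them) and 9 did not pass. The median was 0.03, and the shares over all genes were the same 23.9% and 28.5%. Bmi1, a subunit of Polycomb repressive complex PRC1, fell from 96.6 ± 3.45 to 55.6 ± 6.51 CPM (-0.80, adjusted p = 0.000997). Cbx8, which reads the Polycomb mark, was lower at -1.06 (adjusted p = 0.00186), as was Kdm6b, a demethylase that removes it, at -1.06 (adjusted p = 0.00497). Rnf2, the catalytic subunit of PRC1, was higher (0.39, adjusted p = 0.00443). The higher members numbered 4 without KO replicate 2, a share near that of all genes.

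Among CDX and other upstream regulators of HOX genes, the CDX genes were almost without counts. Cdx1 and Cdx4 had 0 counts and Cdx2, a regulator of HOX genes in leukaemia, had 1. Of 5 tested members 3 were lower and 0 higher, beside 28.5% and 23.9% over all genes tested, and Zbtb16 reached the filter's level through WT alone. The retinoic acid receptors Rara (-1.22, SE 0.22, adjusted p = 0.00427) and Rarg (-2.57, SE 0.50, adjusted p = 0.00527) were lower, retinoic acid being a classical inducer of anterior HOX genes. Zbtb16, a repressor of HOX genes in some tissues, had 12, 13 and 12 counts in WT and 3, 9 and 3 in KO (-1.78, adjusted p = 0.0133), stood at -2.41 without KO replicate 3, and did not pass without KO replicate 2 (adjusted p = 0.0553, the highest of a range that began at 0.0110). Gfi1, which opposes HOXA9 in myeloid cells, did not pass (-0.07, adjusted p = 0.808), and its sign turned to positive in 6 of the 14 alternatives.

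Genes reported elsewhere as targets of HOXA9 and MEIS1 were lower in 5 of 12 tested cases, higher in 1 and did not pass in 6, with a median of -0.35, beside 28.5% lower and 23.9% higher over all genes tested. Erg, a transcription factor of stem cells (-0.44, adjusted p = 0.00351), and Sox4, a factor of B-cell progenitors (-0.43, adjusted p = 0.00362), were lower by small amounts. Igf1r, a growth factor receptor, fell from 51.9 ± 20.8 to 7.51 ± 4.87 CPM (-2.77, adjusted p = 0.00433), and was at -3.37 without KO replicate 4. Id2, an inhibitor of E proteins, fell from 53.2 ± 29.1 to 15.5 ± 2.06 CPM (-1.77, adjusted p = 0.00605). The member that rose was Myc, chosen after its value was seen (0.94, adjusted p = 0.00873). Without WT replicate 3 there were 2 that rose.

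Neighbouring genes of the clusters were called at shares near or under those of all genes. Of the protein-coding neighbours of the 4 HOX clusters, 16 were tested, with 4 higher, 3 lower and 9 not passing (median 0.07), beside 23.9% higher and 28.5% lower over all genes tested. Beside HOXB, Skap1, an adaptor protein next to Hoxb1, had 8.55, 9.46 and 7.48 CPM in WT and 5.63, 6.06 and 7.40 CPM in KO, a difference that did not pass (-0.42, adjusted p = 0.0646). Snx11, a sorting nexin, was lower (-0.48, SE 0.14, adjusted p = 0.0240), and Cbx1, a heterochromatin protein, did not pass (0.16, adjusted p = 0.147). These 3 were chosen after their values were seen. Beside HOXA, whose own genes were near the limit of detection, Skap2 (-1.31, adjusted p = 0.00478) and Snx10 (-0.75, adjusted p = 0.0104) were lower. Hnrnpa3, beside HOXD (0.34, adjusted p = 0.0101), and Atp5g2, beside HOXC (0.40, adjusted p = 0.0143), were higher. The higher neighbours numbered 1 without WT replicate 4 or KO replicate 2 and 2 without KO replicate 3, and the call of Atp5g2 was lost without WT replicate 4 (adjusted p = 0.0523) and without KO replicate 2 (0.0504).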

How the data were processed

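RNA sequencing libraries were made from 1.3 ug of total RNA with an mRNA kit, per the labels' protocols. The authors deposited whole-number counts per Ensembl gene, placed on GRCm38 (mm10) per the submitters' processing notes, and an exonic length per gene. Which aligner and counting program were used, and whether strand was used, is not given in the sources used here. A comparison table deposited by the authors holds log2 fold changes and p-values (FDR) per the file headers, and the deposited statistics name DESeq2 as its tool. Tables named for FPKM and TPM were not used.

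Counts were tested with edgeR 4.0.16 (quasi-likelihood F test, filterByExpr with minimum count 10 and minimum total 15, TMM scaling, Benjamini-Hochberg adjustment over 14481 genes, threshold 0.05) in R 4.3.3. Adjusted p-values in the text are those of this test where no tool is given. Alternatives used limma 3.58.1, DESeq2 1.42.0, other scalings and filters, a replicate block, and each library left out. The test was checked on simulated data in which 200 genes changed. Common biological coefficient of variation was 16.8%. Replicates differed beyond counting noise (chi-square per degree of freedom 11.2 to 79.0). Figures used matplotlib 3.10.9.

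With library totals alone as scaling, the median log2 fold change of all genes shifted to 0.11 and calls were 4542 higher and 3500 lower, against 3466 and 4133 with TMM.

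The members and lists were chosen with earlier results of these data known. Named genes were all HOX members with counts, all TALE cofactors and up to 4 tested members of each other list with the smallest p. Some genes that this rule names are not reported here. All 39 HOX rows matched GENCODE M21 positions. The planned comparison of homeodomain proteins was not run. Lists were described by counts and medians only. Of 17 noncoding genes listed, 16 were in the table, and of 21 neighbours 19 were.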

Additional observations from a re-analysis of the deposited data

How the results depend on the processing

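The calls of Hoxb3 to Hoxb7 held in all 14 alternatives, with adjusted p up to 0.0176, and HOX members lower in KO numbered 5 to 7 with 0 higher in each. The replicate numbers 3 and 4 occur in both genotypes, but their libraries' deviations correlated at 0.05 and 0.21 and the labels do not tie the numbers to animals. With these numbers as a replicate block, calls over all genes numbered 2925 higher and 3842 lower, HOX members lower numbered 6, higher Polycomb genes numbered 4 and higher neighbours 1 (Atp5g2 adjusted p = 0.0534). The block moved Rarg to -1.80, Igf1r to -2.14 and Id2 to -1.13. Higher HOXA9-MEIS1 targets numbered 2 under DESeq2 and with no filter. With single libraries left out, lower MLL-menin genes ranged from 1 to 2, higher Polycomb genes from 4 to 7, higher HOXA9-MEIS1 targets from 1 to 2 and higher neighbours from 1 to 4. The sign of Gfi1 turned with library totals alone (0.049), with no filter (0.00035), under the block (0.22) and without WT replicate 1 (0.079; lowest with 1 library left out -0.27), WT replicate 4 (0.0032) or KO replicate 2 (0.089). The cause of these changes was not tested. Of the values of single genes under these alternatives, 452 kept direction and side of the threshold, 15 lost the call, 2 gained it and 6 changed sign. The depth limits HOXA, HOXC and HOXD genes, where 3 counts equal 0.103 to 0.169 CPM.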
